A study of Mus musculus with 2 samples.

Results

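The 10 genes described here encode the core machinery with which mitochondria fuse, divide and are removed by autophagy: Opa1, Mfn1 and Mfn2 for fusion, Dnm1l, Fis1 and Mff for fission, and Pink1, Bnip3, Bnip3l and Fundc1 for mitophagy. They were taken by symbol from the 24346 gene symbols of the deposited expression files, and all 10 were found. All 10 passed the limit of a mean of 0.5 FPKM (a count of sequenced fragments divided by transcript length and library size) that 12882 symbols passed. RNA sequencing was done on 2 libraries of mouse heart tissue that was placed in an RNA preservative and frozen, with the model labelled HFD-MI (myocardial infarction by the series title, HFD most likely a high-fat diet) and the age label day 14. The heart tissue of the first group had been treated with probucol, a cholesterol-lowering antioxidant drug, and that of the second was untreated. Each group has 1 library, so there is no test between groups, and every difference below describes these libraries. The genotype and sex of the mice, the event from which the days were counted, the part of the heart taken and any pooling of animals stay unstated in the labels.

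Mitochondria form a network that is reshaped all the time. Mitofusins join the outer membranes of neighbouring mitochondria and OPA1 joins the inner membranes, whereas the dynamin DRP1, encoded by Dnm1l, is drawn to receptors on the outer membrane and constricts the organelle. Damaged pieces are taken up by autophagosomes, either after the kinase PINK1 has marked them for the ubiquitin ligase parkin or through outer membrane receptors such as BNIP3, NIX (encoded by Bnip3l) and FUNDC1, which bind LC3 proteins themselves. Heart muscle is packed with mitochondria, and its cells depend on this turnover.

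Fusion genes were higher in the probucol library than in the untreated one, fission genes differed little, and the mitophagy genes divided. The log2 ratio, here log2((FPKM probucol + 0.5)/(FPKM untreated + 0.5)), was 0.58 for Mfn1, 0.44 for Opa1 and 0.36 for Mfn2. It was 0.19 for Dnm1l, 0.12 for Mff and 0.11 for Fis1. Bnip3 (0.55) and Pink1 (0.52) were higher with probucol, while Fundc1 (-0.01) and Bnip3l (-0.10) were not. Fundc1 may rest on few fragments, and its 95% counting interval (-0.78 to 0.80) then also covers the ratios of Bnip3 and Pink1. No member was 1.5-fold higher or lower, limits that 5.52% and 12.0% of all measured genes passed. A lower limit, a log2 ratio of at least 0.32, was passed upward by 5 of the 10, namely Mfn1, Opa1, Mfn2, Bnip3 and Pink1, and downward by 0, where 17.4% of measured genes passed it upward and 21.7% downward. The median ratio of the 10 members was 0.27, beside a median of 0.01 over all measured genes.

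As sequence context for these genes, the 250 bases before the annotated start of transcription were taken from RefSeq (build GRCm38.p6), for which 9 of the 10 genes matched; Bnip3l was the remaining gene. They are shown for Opa1, Mfn1 and Bnip3, which were higher with probucol, and for the fission gene Fis1, which differed little. Each runs 5′ to 3′ on the strand of its gene, and capitals mark the letters that matched a searched motif. Every stretch shown holds a match, whereas those of Pink1, Mfn2, Dnm1l and Fundc1, not shown, hold none.
Opa1, chr16:29579084-29579333, plus strand: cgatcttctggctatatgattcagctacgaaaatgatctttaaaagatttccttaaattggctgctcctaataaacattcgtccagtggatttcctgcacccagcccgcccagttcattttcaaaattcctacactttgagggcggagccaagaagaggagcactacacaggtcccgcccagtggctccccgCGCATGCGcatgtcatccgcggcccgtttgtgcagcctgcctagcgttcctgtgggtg
Mfn1, chr3:32529232-32529481, plus strand: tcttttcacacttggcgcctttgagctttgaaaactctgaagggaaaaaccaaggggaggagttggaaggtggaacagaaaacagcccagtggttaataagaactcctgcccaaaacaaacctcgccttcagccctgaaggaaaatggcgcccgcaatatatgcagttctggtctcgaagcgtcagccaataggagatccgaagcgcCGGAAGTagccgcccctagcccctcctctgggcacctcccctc
Bnip3, chr7:138909507-138909756, minus strand: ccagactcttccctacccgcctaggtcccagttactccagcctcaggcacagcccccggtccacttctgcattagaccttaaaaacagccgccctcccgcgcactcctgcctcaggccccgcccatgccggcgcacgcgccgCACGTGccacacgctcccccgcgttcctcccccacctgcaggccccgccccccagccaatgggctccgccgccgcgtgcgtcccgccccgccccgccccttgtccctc
Fis1, chr5:136953025-136953274, plus strand: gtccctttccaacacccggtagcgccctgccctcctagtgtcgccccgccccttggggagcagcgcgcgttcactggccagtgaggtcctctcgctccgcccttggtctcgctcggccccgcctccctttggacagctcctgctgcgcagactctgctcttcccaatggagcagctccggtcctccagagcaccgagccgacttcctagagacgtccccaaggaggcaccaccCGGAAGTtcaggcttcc

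Factors with known roles in mitochondrial gene expression, hypoxia or muscle catabolism guided the motifs, which were searched on both strands of windows of 250 bases before and 50 after each start. GCATGCG, a core of sites of the factor NRF1, was in 3.58% of all 32851 windows and in a window of 7.20% of measured genes, and among the members was in that of Opa1. There it occurs on both strands in overlapping matches, the first of which begins 58 bases before the start. The letters CGGAAGT, a core of sites of the ETS factor GABPA, were in 6.42% of windows, in a window of 14.4% of measured genes and in those of 3 members, Mfn1, Fis1 and Mff. Of these, Mfn1 had the highest ratio of the 10, and the fission genes Fis1 and Mff were near 0. Whether the letters have a part in the ratios was not tested. ACGTG, the core of the hypoxia response element, was in 19.6% of windows, in a window of 29.0% of measured genes and in those of 2 members, Bnip3 and Mfn2. In Bnip3, a known target of hypoxia-inducible factor, it lies within CACGTG, an E-box that 7.15% of windows and 11.7% of measured genes hold and that overlaps it in full. The CREB core TGACGT (7.51% of windows, 13.1% of measured genes) was in windows of 1 member, Mfn2. Neither AAGGTCA, a core of sites of estrogen-related receptors (4.72% and 3.98%), nor the FOXO core GTAAACA (3.65% and 3.10%) was in a member's window. These are matches of letters in short windows and say nothing of binding.

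All members were well expressed, between 17.6 and 328 FPKM. FPKM is a level per transcript length, so a comparison of levels between genes depends on the transcript lengths used, which were not given. The intervals below cover counting error only. Pink1 was the most abundant in both libraries, followed by Bnip3, Mfn2 and Fis1, and Fundc1 was the least abundant. In the middle, the order differed between libraries. Mfn1 stood above Mff with probucol and below it without. Opa1 moved from behind Bnip3l in the untreated library to just ahead of Dnm1l in the probucol library. Neighbours in the order were close in places: with probucol, Opa1 at 48.9 FPKM (95% counting interval 45.9 to 52.1) and Dnm1l at 47.9 (44.2 to 51.8) overlapped, as did Mfn1 and Mff. Without probucol, the intervals of Bnip3l (35.2 to 40.3) and Opa1 (33.6 to 38.6) overlapped, and so did those of Dnm1l and Bnip3l. There, Mfn2 (167 to 177) also overlapped with Bnip3 above it and Fis1 below it. The interval of Pink1 overlapped with no other in either library.

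**Figure D1:**
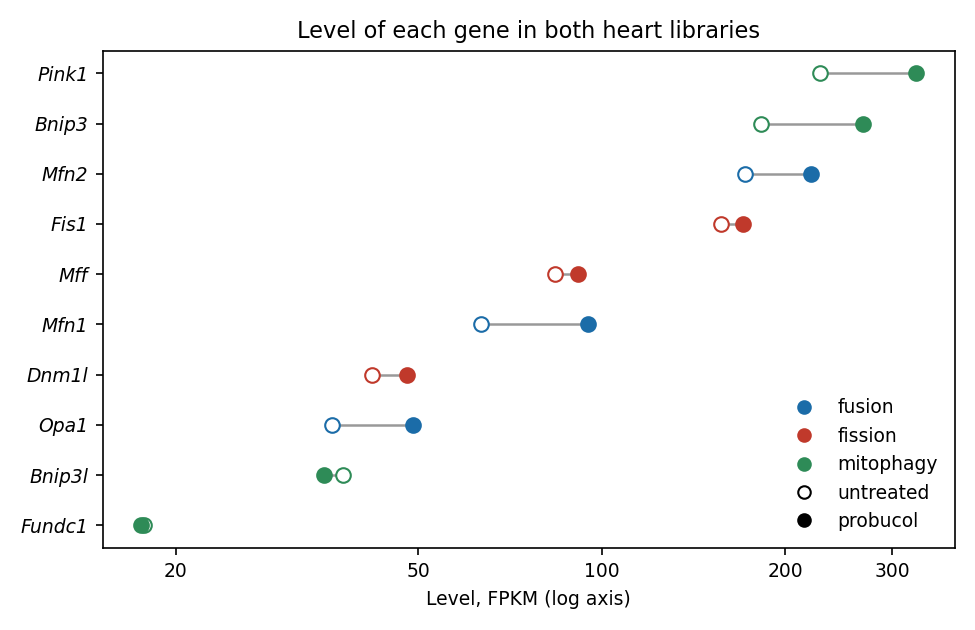
Level of each of the 10 genes in FPKM on a log axis, with open circles for the untreated and filled circles for the probucol library, coloured by role. Pink1 lay at 228 and 328 FPKM and Fundc1 near 18 in both, and the circles lay furthest apart for Mfn1, Bnip3, Pink1 and Opa1.

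The fusion genes come first. Mfn1 (ENSMUSG00000027668.13, chromosome 3, 32529465 to 32579239, GRCm38/mm10, plus strand) encodes mitofusin 1, the GTPase that tethers outer membranes. It had 95.1 FPKM with probucol and 63.4 without, a ratio of 0.58 with a 95% counting interval of 0.50 to 0.67. It rested on about 2754 and 2047 fragments, estimated from what 1 fragment is worth at low values. Such intervals cover counting error only and leave out the variation between animals. Mfn1 thus lay just under the 1.5-fold limit, and its ratio exceeded that of 94.3% of measured genes. Mfn2 (ENSMUSG00000029020.13, chromosome 4, 147873599 to 147904704, minus strand) encodes mitofusin 2, which also links mitochondria to the endoplasmic reticulum. Its level was 221 against 172 FPKM, a ratio of 0.36 (0.31 to 0.42) and the smallest of the fusion genes. The level of Mfn2 was 2.32 times that of Mfn1 with probucol and 2.71 times without, and the quotient of these ratios was 0.856 (0.799 to 0.918). The balance between the mitofusins therefore lay further toward Mfn1 in the probucol library. Opa1 (ENSMUSG00000038084.16, chromosome 16, 29579334 to 29654884, plus strand), whose product also holds cristae in shape, had 48.9 against 36.1 FPKM, a ratio of 0.44 (0.31 to 0.58).

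The fission genes were close to even between the libraries. Dnm1l (ENSMUSG00000022789.15, chromosome 16, 16312230 to 16358959, minus strand) had 47.9 FPKM with probucol and 42.0 without, a ratio of 0.19 (0.03 to 0.35). Mff (ENSMUSG00000026150.14, chromosome 1, 82724890 to 82752394, plus strand), the main receptor of DRP1 on the outer membrane, had 91.5 against 84.0 FPKM, a ratio of 0.12 (-0.03 to 0.28). Fis1 (ENSMUSG00000019054.13, chromosome 5, 136953275 to 136966234, plus strand), an outer membrane protein first known as a fission factor, had 170 against 157 FPKM, a ratio of 0.11 (-0.04 to 0.27). For Mff and Fis1 no difference was detectable with the fragment numbers of their shortest transcripts, which give the widest intervals. The counting interval of Dnm1l lay above 0, but with the libraries scaled to equal summed FPKM, which lowers ratios by 0.15, its ratio was 0.04 and those of Fis1 (-0.03) and Mff (-0.02) turned below 0. A pseudogene with 91.2% identity to 1347 bases of Dnm1l has no row in the files. The ratio of Fis1 to Mff was 1.86 and 1.87 in the libraries.

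Ratios of members within a library do not depend on the scaling between libraries, so they were used to set fusion against fission. Summed over each role, fusion genes had 365 FPKM with probucol and 271 without, and fission genes had 310 and 283. The sum for fusion was thus 1.18 times that for fission with probucol and 0.958 times without. These sums cover 3 genes per role, and Fis1 alone made up 170 and 157 FPKM of the fission sums. All 9 pairs of a fusion and a fission gene had a higher ratio in the probucol library, by 1.13 times for Mfn2 over Dnm1l to 1.39 times for Mfn1 over Fis1. The counting interval lay above 1 for 8 of the 9, the exception being Mfn2 over Dnm1l (0.998 to 1.27). The intervals used the shortest transcripts, which gave about 619 and 605 fragments for Dnm1l. Its longest transcript would give 1197 and 1171 and a narrower interval, so this count depends on the transcript taken. These pairs share genes and both libraries, and 16 pairs were computed in all. The contrast is one of these members. For the lists of partner genes described below, both sums were higher with probucol. Fusion partners had 1760 against 1382 FPKM and fission partners 408 against 323.

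**Figure D2:**
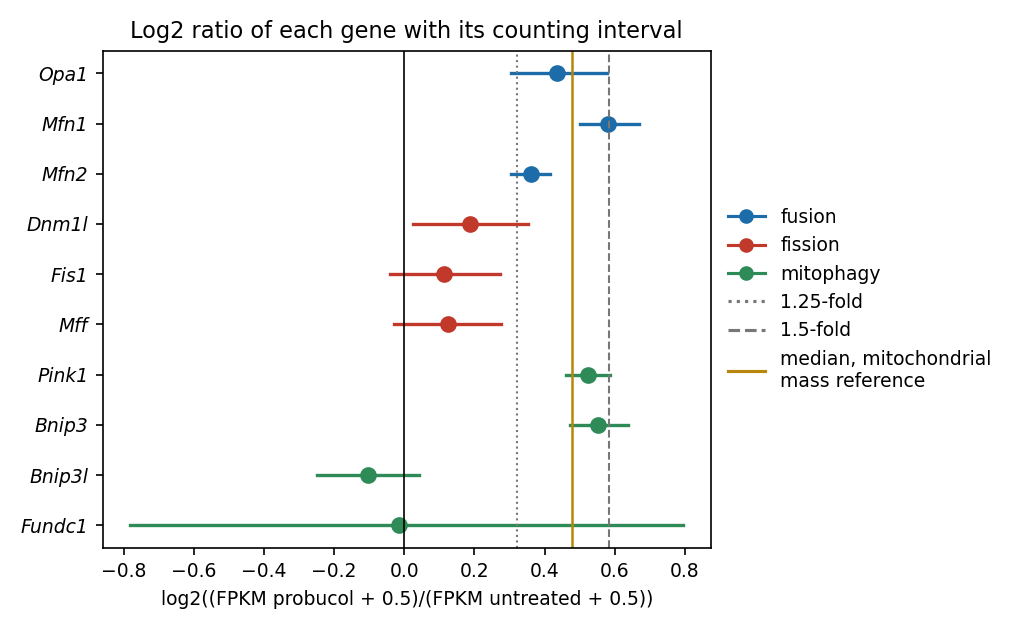
Log2 ratio of each gene (points, probucol over untreated) with its 95% counting interval (bars), coloured by role; dotted and dashed lines mark log2 ratios of 0.32 and 0.58, and the gold line the median of 20 genes of abundant mitochondrial proteins. The fusion genes, Pink1 and Bnip3 lay between 0.36 and 0.58, and the fission genes between 0.11 and 0.19.

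Among the mitophagy genes, the kinase and 1 of the receptors were higher with probucol. Pink1 (ENSMUSG00000028756.12, chromosome 4, 138313409 to 138326307, minus strand) had 328 FPKM with probucol and 228 without, a ratio of 0.52 (0.46 to 0.59). Bnip3 (ENSMUSG00000078566.8, chromosome 7, 138890836 to 138909519, minus strand) had 268 against 183 FPKM, a ratio of 0.55 (0.47 to 0.64). Their proportion was similar, since the level of Pink1 over that of Bnip3 in the probucol library was 0.979 times that in the untreated library (0.910 to 1.05). Annotated pseudogenes that align to Bnip3 at up to 98.9% identity over 564 of the 1756 bases of its transcript, and a non-coding RNA at 98.3% over 858 bases, have no row in the files, so reads shared with them cannot be told apart and the value of Bnip3 is uncertain to that extent. Pink1 had no such copy among the annotated transcripts.

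Its close relative differed. Bnip3l (ENSMUSG00000022051.15, chromosome 14, 66985239 to 67008877, minus strand), known for clearing mitochondria from maturing red cells, had 35.1 FPKM with probucol and 37.7 without, a ratio of -0.10 (-0.25 to 0.04). The level of Bnip3 was 7.65 times that of Bnip3l with probucol and 4.84 times without, and the quotient of these was 1.58 (1.40 to 1.77), the largest of the 16 pairs. A processed copy, Bnip3l-ps, shares 99.4% of 1131 bases with Bnip3l and also has no row. Fundc1 (ENSMUSG00000025040.13, chromosome X, 17556564 to 17572325, minus strand), a receptor that responds to low oxygen, had 17.6 and 17.8 FPKM, a ratio of -0.01. Its annotated transcripts range from 448 to 1983 bases, so that it may rest on as few as 28 and 31 fragments or as many as 207 and 234, and with the smaller numbers the interval runs from -0.78 to 0.80. With these numbers, the quotient for Bnip3 over Fundc1 was 1.48 (0.844 to 2.53). For Pink1 over Fundc1 it was 1.45 (0.827 to 2.47). Both intervals include 1, so with the smaller numbers Fundc1 was not set apart from either gene. The larger numbers would give narrower intervals, which were not computed, so this reading depends on the transcript taken.

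The members were then set beside genes that stand for mitochondria and for cell types in the tissue. A list of 20 genes of abundant mitochondrial proteins was chosen as a reference for mitochondrial content. These are RNA levels of nuclear genes, and 0 symbols carried the mt- prefix of genes in mitochondrial DNA. Mitochondrial content itself was not measured. All 20 lay above 0, with a median of 0.48, and 3 were at least 1.5-fold higher: citrate synthase (Cs, 0.71), the complex III subunit Uqcrc1 (0.61) and the complex II subunit Sdhb (0.59). The lowest were the import receptors Tomm20 (0.08) and Tomm22 (0.10) and the channel Vdac2 (0.15). Relative to the median of this list, the members had a median of -0.21. Mfn1 (0.10), Bnip3 (0.07), Pink1 (0.04) and Opa1 (-0.04) lay within about 0.1 of it, and Mfn2 at -0.12. Below it lay Dnm1l (-0.29), Mff (-0.36), Fis1 (-0.36), Fundc1 (-0.49) and Bnip3l (-0.58). On that scale 3 of the 10 were above 0, against 8 without centring. The direction of Opa1, Mfn2 and the fission genes thus depends on the reference. Centring lowers every gene by the same 0.48, including the median of all measured genes, which was 0.01 before it. The share of all measured genes above 0 on that scale was not computed.

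Markers of cell types moved between the libraries too. All 12 cardiomyocyte markers were found and higher with probucol (median 0.46, 2 of 12 past 1.5-fold, summed FPKM 76401 against 55026), with the ventricular light chains Myl2 (0.59) and Myl3 (0.56) the most abundant. The macrophage list was lower throughout, with 12 of 12 past 1.5-fold (median -1.56, summed FPKM 1207 against 3975), among them Lyz2 (-1.88) and C1qb (-1.52). Of 10 fibroblast markers, 8 were lower by that limit (median -0.85, summed 913 against 1584), with Dcn at -0.52 and Col3a1 at -1.41. Endothelial markers had a median of 0.11, with 0 of 10 higher and 1 lower by that limit and summed FPKM of 394 against 388, Pecam1 being at -0.24 and Cdh5 at 0.03. In bulk tissue, fewer cells of a type and less RNA per cell cannot be told apart. None of the markers of these 4 lists was at 0 in either library. Of the erythroid list, the lineage in which Bnip3l is best known, 6 of 8 genes were found with 0 listed at 0, and 4 of 5 measured genes were at least 1.5-fold higher, with summed FPKM of 3348 against 1723. Hba-a1 was at 0.94 and Hbb-bs at 1.05. The part of these cell types in the members' ratios was not tested.

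Markers of tissues that might be mixed in ranged from undetected to abundant. Of 8 platelet markers, 6 were measured, 3 of them higher and 1 lower by 1.5-fold, with Ppbp at 2.07 and Pf4 at -1.04. Of 10 skeletal muscle markers, 4 were measured and 5 were listed at 0 in each library. Myod1 and Myh4, named after their values were seen, were at 0 in both. Tnni2, of fast fibres, had 5.21 against 2.63 FPKM, and Acta1 (1.35), which the heart also expresses, was the most abundant. Of 8 adipocyte markers, 3 were measured, with Fabp4 (-0.32), which endothelium also makes, and Cfd (1.11) the most abundant. Summed levels were 81.6 against 117 FPKM for platelets, mostly Pf4 (53.9 against 111). The platelet sum therefore follows Pf4 and hides the 3 markers that were higher, such as Ppbp (13.9 against 2.92). Sums were 799 against 314 for skeletal muscle, mostly Acta1, and 1835 against 2281 for adipocytes, mostly Fabp4. Their part was not tested either.

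Genes that work with the fusion machinery had a narrow range. Of 16 listed, 13 were measured, 12 of them above 0. Their median was 0.35 and 0 were 1.5-fold higher or lower, while 8 passed the lower limit upward. The highest were Parl (0.45), the inner membrane protease that also cleaves PINK1, Immt (0.42), which encodes the cristae junction protein mitofilin, and Samm50 (0.40), of the outer membrane assembly complex. The lowest were Yme1l1 (-0.03), a protease that cuts OPA1, Stoml2 (0.13) and the ubiquitin ligase March5 (0.22).

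Partners of fission were more mixed. Of 14 listed, 12 were measured, of which 8 lay above 0, and 0 were 1.5-fold higher or lower (median 0.27), while 6 passed the lower limit upward and 1 downward. Mief1, an outer membrane receptor that holds DRP1, had 6.49 FPKM with probucol and 4.17 without, a ratio of 0.58. It was followed by Mtfp1 (0.54), an inner membrane protein of fission, and the ubiquitin ligase Mul1 (0.50). The lowest were the actin regulators Spire1 (-0.52) and Inf2 (-0.24) and the SUMO protease Senp5 (-0.15). The related receptor gene Mief2, named after its value was seen, was at 0.20, nearer to Mff (0.12) and Fis1 (0.11).

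The mitophagy partners had a lower median, at 0.14 over 20 measured of 21 listed symbols. The remaining symbol, Nipsnap2, is another name of Gbas, which was measured. Of the 20, 17 were above 0, 1 was at least 1.5-fold higher and 0 lower, while 3 passed the lower limit upward and 1 downward. The gene past 1.5-fold was Optn (0.70), which encodes optineurin, an adaptor between ubiquitin-marked mitochondria and LC3. Next came Gbas (0.58), which encodes a mitochondrial protein of the NIPSNAP family, and Rhot2 (0.54), of the Miro GTPases that PINK1 and parkin act on. Tbk1 (-0.33), the kinase of optineurin, was the lowest. Park2, the gene of parkin, had 4.09 FPKM with probucol and 4.38 without (-0.09), so that Pink1 had 80.1 times its level with probucol and 52.0 times without. Nipsnap1, at 0.538 and 0.563 FPKM, was barely detected. The LC3 and GABARAP genes, whose proteins the receptors bind, were nearly even: 4 of 5 were above 0, with a median of 0.18 and 0 past the lower limit. Gabarapl2 (0.25), Map1lc3a (0.23) and Gabarapl1 (0.18) led, with Map1lc3b at 0.05 and Gabarap at -0.01.

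**Figure D3:**
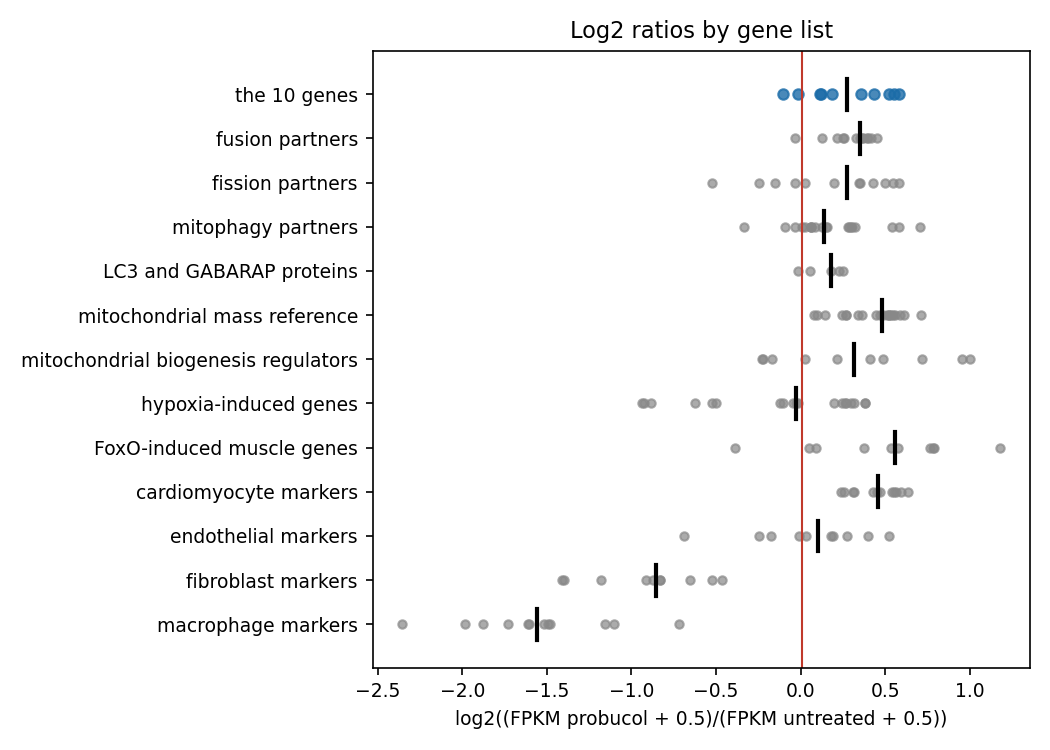
Log2 ratios (probucol over untreated) of the 10 genes (blue) and of the measured genes of 12 lists (grey), with the median of each as a black bar and the median of all measured genes as a red line. The 10 genes had a median of 0.27, between those of mitochondrial content (0.48) and of mitophagy partners (0.14), and the macrophage list lay lowest, at -1.56.

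Lists of upstream pathways went different ways. Of 10 regulators of mitochondrial biogenesis, 7 were above 0 (median 0.31) and 3 at least 1.5-fold higher: Ppargc1a (23.4 against 11.4 FPKM), which encodes the coactivator PGC-1alpha, its partner receptor gene Ppara (0.95) and the mitochondrial methyltransferase gene Tfb1m (0.72). The related coactivator genes Ppargc1b (-0.23) and Pprc1 (-0.22) and Nrf1 (-0.17) were the lowest. FoxO factors induce Bnip3 and atrophy genes in muscle. Of 10 genes known as FoxO-induced, 4 were at least 1.5-fold higher and 0 lower (median 0.56), led by Klf15 (1.18), a metabolic regulator that glucocorticoids also induce, the ubiquitin ligase gene Fbxo32 (0.79) and Txnip (0.78), while Sesn3 (0.09), Irs2 (0.05) and Ctsl (-0.39), the cathepsin that macrophages also make, were lowest. Hypoxia also induces Bnip3. Of 19 measured genes of the hypoxia list, 0 were at least 1.5-fold higher and 4 lower, with a median of -0.03. The lowest were the glycolytic genes Eno1 (-0.94) and Pfkfb4 (-0.92) and the hypoxia target Ankrd37 (-0.88), and the highest were Ddit4 (0.38), Pdk1 (0.38) and Hk2 (0.32). The part of either pathway in the ratio of Bnip3 was not tested. The lists were small, and nothing particular to them is read from these counts. For every list count above, the shares of all measured genes past 1.5-fold were 5.52% higher and 12.0% lower.

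**Figure D4:**
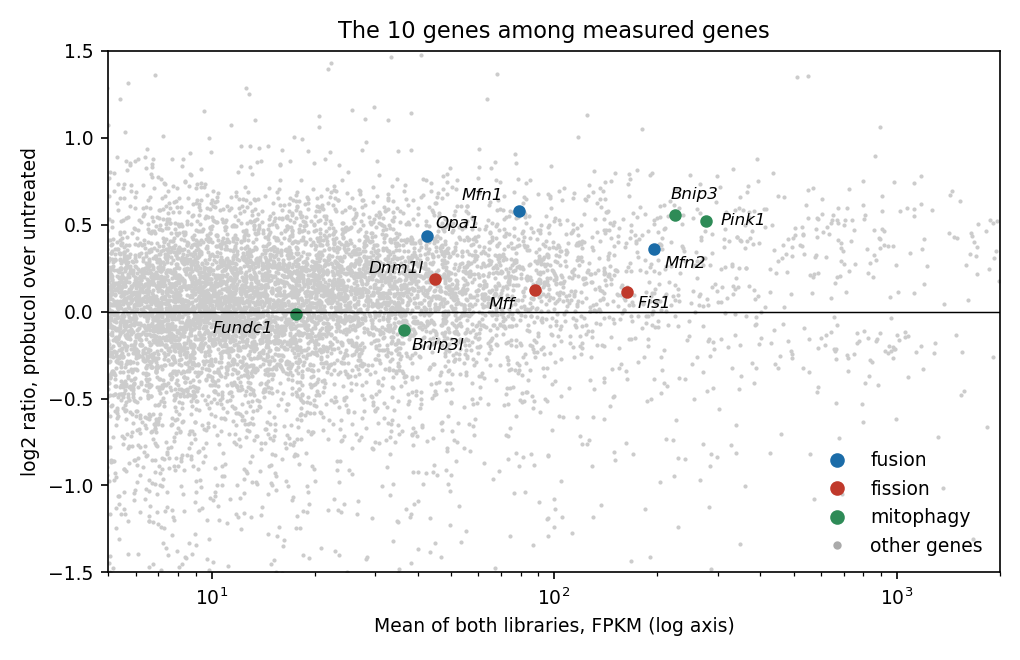
Log2 ratio (probucol over untreated) against the mean of both libraries in FPKM (log axis) for the measured genes that lie within the axes (grey), with the 10 genes coloured by role. The ratios of Mfn1, Bnip3 and Pink1 exceeded those of 94.3%, 93.6% and 92.6% of measured genes, and Bnip3l and Fundc1 lay near 0.

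Restricted to the 8079 genes with a mean of at least 5 FPKM, which include all 10 members, 19.0% passed the lower limit upward and 16.4% downward. Of these genes, 5.01% were 1.5-fold higher and 8.39% 1.5-fold lower. A ratio above 0 was found for 56.7% of them, for 50.9% of all measured genes and for 8 of the 10 members. The libraries had similar depth: a level of 1 FPKM over an effective length of 1 kb amounted to 6.66 fragments with probucol and 7.42 without. Genes that overlap a member on the other strand, such as Gm45507 at Bnip3, Gm49521 at Dnm1l and C430014B12Rik at Mff, have no row of their own in the files. The library kit keeps strand, but no label says whether the counting used it.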

How the data were processed

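RNA was sequenced from 2 libraries of mouse heart tissue, made with a stranded mRNA kit per the labels' protocols and grouped by the treatment label. The authors deposited 1 FPKM value per gene symbol and library; per the submitters' processing notes, build mm10 was used with Cuffdiff 2.2.1, TopHat2 2.1.1 and Bowtie2. Annotation and scaling were not given in the sources used here. FPKM shift when a few abundant transcripts take a larger share.

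Ratios were taken without rescaling, with 0.5 FPKM added, for genes with a mean of at least 0.5 FPKM. Genes with 1 RefSeq transcript gave the FPKM worth of 1 fragment, with 210 bases subtracted from the transcript length. Of the low values used, 77.8% (probucol) and 77.7% (untreated) then lay within 0.1 of a whole number of fragments. Fragment numbers of members used the shortest GENCODE M21 transcript matched to RefSeq. Intervals at 95% are exact binomial (Clopper-Pearson) for a ratio, exact Poisson for a level and exact conditional for pairs of members (scipy 1.17.1). Copies were sought with blastn 2.17.0 (at least 90% identity over 200 bases). The search for the fragment worth and the fold limits were run on simulated libraries with known transcript lengths and counting error only. Such libraries leave out unknown transcript lengths and variation between animals.

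The members and lists were chosen with earlier results of these data known. The text names all 10 members, up to 3 highest and 3 lowest measured genes of each list, and the 2 most abundant measured markers of each cell type; 1 gene is not reported here. With 2 libraries no measure of likeness between genes was computed. Alternatives covered the pseudocount, the filter, the scaling, the fold limit, gene types and the bases subtracted.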

Additional observations from a re-analysis of the deposited data

How the results depend on the processing

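With 1 library per group and no replicates to leave out, the alternatives concern processing only. No paired analysis was possible because each group has 1 library and the labels carry no replicate numbers. The median ratio of the members moved from 0.27 to 0.13 with libraries scaled to equal summed FPKM, to -0.21 centred on the genes of mitochondrial content and to -0.19 centred on cardiomyocyte markers. With equal sums, 3 of 10 members passed a log2 ratio of 0.32, and with either centring 0 did and 4 lay as far below 0. These scalings shift all genes alike, and the median of all measured genes was 0.01 before them. The shares of all measured genes past 0.32 under them were not computed, so these counts have no background beside them. The count of members at least 1.5-fold higher was 0 under each scaling, pseudocount and filter tried, and 5 at the lower limit of 0.32 on the log2 scale. The scalings lowered every ratio and the filters left the members' ratios unchanged, so neither could raise that count of 0. Pseudocounts moved Mfn1 only between 0.577 and 0.584, beside a limit of 0.585. The counting intervals of Mfn1 (up to 0.668), Bnip3 (up to 0.637) and Pink1 (up to 0.586) reach past that limit. The count of all genes at least 1.5-fold higher was 711, and 376 with equal sums, 405 among genes of at least 5 FPKM and 2241 at the lower limit. Of 60 values of single members under other pseudocounts and scalings, 37 moved by less than the half-width of their counting interval, and 18 of the 23 that moved by more came from centring on a list; the others came from equal sums. Of the 40 fragment numbers under other bases subtracted, 2 moved beyond counting error, those of Fis1 (579 and 597 with 300 bases). Depth limits Fundc1 most.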

Other observations

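Further lists of mitochondrial genes were chosen after the data had been seen. Of 13 measured genes of cristae junctions and cardiolipin, the lipid that OPA1 needs, 12 were above 0 (median 0.25) and 1 was at least 1.5-fold higher, Chchd6 (0.68), a cristae junction subunit. Apoo (0.55) and Chchd10 (0.54), of the same structures, followed. Of the enzyme genes of cardiolipin synthesis, the synthase gene Crls1 was at 0.28, Tamm41 at 0.15, Ptpmt1 at 0.13 and Pgs1 at -0.08.

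All 10 genes of matrix proteases and chaperones, the first line of mitochondrial quality control, lay above 0 with a median of 0.34, and 0 passed 1.5-fold. Clpp (0.55), a matrix protease, Dnaja3 (0.55) and Hspa9 (0.52), chaperones, were the highest, and Htra2 (0.04), Lonp1 (0.22) and Grpel1 (0.24) the lowest. Of 10 genes of mitochondrial calcium transport, 8 were above 0 (median 0.39), with Vdac1 (0.53), which is also in the list of mitochondrial content, the channel subunit Mcu (0.49) and Ppif (0.47), which encodes cyclophilin D, the highest. At least 1.5-fold lower were 2 of them, Ccdc109b (-0.78), an inhibitory relative of Mcu, and Slc8b1 (-0.61), the exporter. Scaling to equal summed FPKM lowers each of these ratios by about 0.15.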
